A study of Mus musculus with 8 samples.

Results

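The 10 genes described here encode the Toll-like receptors Tlr1 to Tlr9 and Tlr13. They were taken by gene name from a table of 55679 genes, and all 10 were present and expressed highly enough to be tested among 19364 genes. The table holds RNA-seq of mouse left ventricle from 8 libraries, 4 from animals infused with saline (control) and 4 from animals infused with angiotensin II (ANG II), the peptide hormone that constricts vessels and raises blood pressure. All animals were male wild-type C57BL/6J mice with no other genetic change. ANG II was given at 1500 ng/kg/min for 7 days through an osmotic pump under the skin, and the control animals carried the same pump with saline. The dose was chosen by the study to raise blood pressure, and blood was washed out of the hearts with saline before dissection. The comparison answers which receptor transcripts differ in the ventricle after a week of ANG II.

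Toll-like receptors are membrane proteins of innate immune cells and, at lower levels, of endothelial cells, fibroblasts and cardiomyocytes. Their leucine-rich ectodomain binds microbial products or molecules released by damaged tissue, and their cytoplasmic TIR domain recruits adaptor proteins. Tlr1, Tlr2, Tlr4, Tlr5 and Tlr6 act mainly at the cell surface. Tlr3, Tlr7, Tlr8, Tlr9 and Tlr13 sense nucleic acids inside endosomes and depend on the chaperone Unc93b1 to get there. Every receptor except Tlr3 uses the adaptor Myd88, which leads through Irak kinases and Traf6 to NF-kB, while Tlr3 and internalised Tlr4 use the adaptor Ticam1 (TRIF), which leads to interferon regulatory factors.

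Values are FPKM, fragments per kilobase of transcript, scaled to the mapped fragments of the library, which is a level per length. A gene was called when limma on log2(FPKM + 1) gave a Benjamini-Hochberg adjusted p under 0.05 over all 19364 genes and an absolute log2 fold change above 0.5. The libraries held 14455971 to 16565459 fragments. The cardiomyocyte genes Myh6, Tnnt2, Tnni3, Actc1, Ryr2, Pln, Mb and Nppa, summed, stood at 38100.0 to 38677 FPKM in the control libraries and 29146 to 32136 FPKM in ANG II libraries. Markers of heart muscle were thus abundant in all 8 libraries. The labels name no batch. The study calls its sequencing samples biological replicates and states more of them per group than there are libraries in this table. The labels tie no library to a named animal, so p-values measure the spread between these libraries.

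Stretches of the start regions of 4 receptor genes are shown because these hold the core of the site bound by PU.1, the transcription factor of macrophages and other myeloid cells. Each is the 250 bases before a RefSeq transcript start (GRCm38.p6), written 5′ to 3′ along the gene, with GAGGAA, or TTCCTC where it lies on the opposite strand, in capitals. The start regions lie at chrX:106143025-106143274 (+) for Tlr13, chr5:64933559-64933808 (-) for Tlr1 (the farther upstream of a pair of starts), chr9:106222348-106222597 (+) for Tlr9 and chrX:167264330-167264579 (-) for Tlr8.
Tlr13: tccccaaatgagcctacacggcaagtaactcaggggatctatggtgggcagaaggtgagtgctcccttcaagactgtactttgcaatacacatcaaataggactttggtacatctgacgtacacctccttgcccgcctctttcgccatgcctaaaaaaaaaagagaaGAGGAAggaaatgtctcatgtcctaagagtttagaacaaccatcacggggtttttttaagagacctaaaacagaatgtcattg
Tlr1: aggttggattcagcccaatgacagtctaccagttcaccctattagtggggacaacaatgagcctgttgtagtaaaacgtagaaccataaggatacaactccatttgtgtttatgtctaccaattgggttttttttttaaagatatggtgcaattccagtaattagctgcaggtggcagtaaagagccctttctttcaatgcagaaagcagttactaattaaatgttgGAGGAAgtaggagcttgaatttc
Tlr9: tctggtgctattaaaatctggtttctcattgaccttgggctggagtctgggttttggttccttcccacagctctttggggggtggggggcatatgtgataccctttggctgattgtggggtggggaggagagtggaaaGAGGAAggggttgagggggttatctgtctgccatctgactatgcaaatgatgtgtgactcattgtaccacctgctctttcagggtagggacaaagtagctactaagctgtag
Tlr8: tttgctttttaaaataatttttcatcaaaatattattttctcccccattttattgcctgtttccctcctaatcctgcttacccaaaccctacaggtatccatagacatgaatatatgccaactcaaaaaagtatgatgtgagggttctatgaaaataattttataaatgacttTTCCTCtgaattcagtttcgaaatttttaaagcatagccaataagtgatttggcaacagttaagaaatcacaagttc

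The RefSeq table held start regions for 8 of the 10 receptor genes, and Tlr4 and Tlr7 had no entry. The first base of the PU.1 letters lay 23 bases before the start in Tlr1, 83 in Tlr13, 112 in Tlr9 and, on the opposite strand, 77 in Tlr8. The letters GAGGAA were found, on either strand, in 4 of the 10 start regions of these 8 genes and in 23.25% of 32851 mouse start regions of the same length. The letters of the AP-1 site, TGANTCA, were found on either strand in Tlr9 alone, 58 bases before its start, and in 6.749% of all start regions. The PU.1 and AP-1 letters did not overlap. Tlr2, Tlr3, Tlr5 and Tlr6 held neither. These matches are descriptions of sequence and not of binding.

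A second sequence is shown because it bears on how far the values of Tlr1 and Tlr6 can be told apart. Both genes lie next to each other on the minus strand of chromosome 5 with 18467 bases and no annotated gene between them (GENCODE M21, GRCm38). They share an identical run of 229 bases inside 1 coding exon of each, at chr5:64925537-64925765 in Tlr1 and chr5:64953828-64954056 in Tlr6.
Tlr1 and Tlr6: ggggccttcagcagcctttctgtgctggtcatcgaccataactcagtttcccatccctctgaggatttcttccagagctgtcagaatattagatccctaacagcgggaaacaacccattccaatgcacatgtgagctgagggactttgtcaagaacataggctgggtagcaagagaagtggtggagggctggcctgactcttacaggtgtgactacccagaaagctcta
Of all 50-base words in the Tlr1 transcripts 15.37% occurred also in another gene, and of those in Tlr6 12.32%, so a part of the fragments of either could have been counted for the other. Among the other 8 receptors, Tlr4 shared 0.01801% of its words with another gene and 7 shared none. An antisense gene, Gm45542, lies opposite 7.317% of the exon length of Tlr3.

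Transcripts of 7 of the 10 Toll-like receptors rose in ANG II and none fell. Over all genes tested 14.0% were called higher and 1.41% were called lower. The genes that rose were Tlr1, Tlr2 and Tlr6 at the cell surface and Tlr7, Tlr8, Tlr9 and Tlr13 in endosomes. For 8 of the 10, Tlr4 included, every ANG II library stood above every control library, which held for 28.7% of all genes. The median log2 fold change of the 10 receptors was 0.91, against 0.15 over all genes tested. Relative to that median of all genes, each fold change given here is smaller by 0.15. After scaling by the median of ratios, which brought the median of all genes to 0.00, 6 receptors were called higher, Tlr6 falling below the fold threshold at 0.46, beside 8.65% of all genes. Mitochondrially encoded genes took 28.9 to 30.2% of the summed FPKM in the control libraries and 22.1 to 24.6% in the ANG II libraries, so this share was lower in every ANG II library. With those genes and the 10 most abundant genes left out and the rest rescaled, 6 receptors were called, all but Tlr6 of the 7. In whole tissue, more cells of a type and more RNA per cell cannot be told apart.

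**Figure D1:**
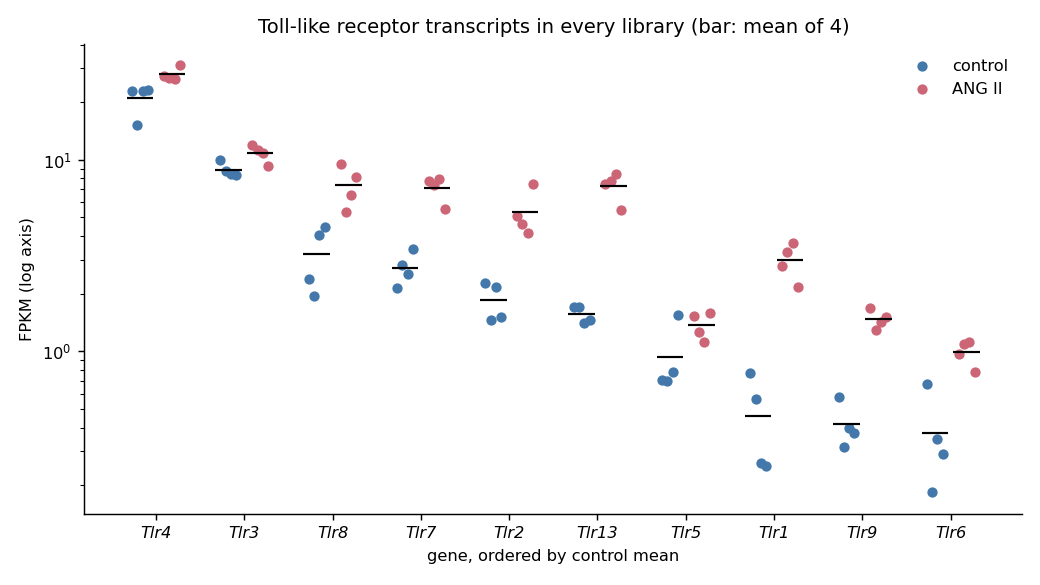
FPKM of the 10 Toll-like receptor genes on a log axis in each of 4 control (blue) and 4 ANG II (red) libraries, with the mean as a bar, genes ordered by control mean. Tlr4 and Tlr3 were the most abundant in both groups, and for all genes but Tlr3 and Tlr5 the red points lie above all blue points.

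In the lipopeptide-sensing group, Tlr2 pairs with Tlr1 to recognise triacylated bacterial lipopeptides and with Tlr6 to recognise diacylated ones. Tlr1 (chr5:64924679-64933563, minus strand) stood at 0.766, 0.561, 0.262 and 0.252 FPKM in the control libraries and at 2.80, 3.29, 3.70 and 2.17 FPKM in the ANG II libraries. The lowest ANG II library was thus well above the highest control, and the ANG II libraries held 72 to 116 fragments of it against 8 to 23 in control. Its mean went from 0.460 ± 0.249 to 2.99 ± 0.658 FPKM (± SD, n = 4 per group), a ratio of means of 6.49, the highest among the 10. Its log2 fold change was 1.45 (SE 0.161, adjusted p = 0.000152).

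Tlr2 (chr3:83836272-83841767, minus strand) was at 2.27, 1.45, 2.16 and 1.52 FPKM in the control libraries and at 5.10, 4.62, 4.15 and 7.50 FPKM in ANG II libraries. ANG II replicate 4 was the highest, and the groups did not overlap. The means were 1.85 ± 0.425 and 5.34 ± 1.49 FPKM (± SD, n = 4 per group), with a log2 fold change of 1.14 (SE 0.171, adjusted p = 0.000798).

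Tlr6 (chr5:64952031-64960097, minus strand) had the lowest mean of the 10 receptors in both groups, though its range overlapped that of its neighbour in order in each. It stood at 0.679, 0.183, 0.350 and 0.292 FPKM in the control libraries and 0.971, 1.09, 1.12 and 0.782 FPKM in ANG II libraries. The values rest on 6 to 22 and on 28 to 39 fragments, and control replicate 1 came closest to the ANG II libraries without reaching them. The log2 fold change was 0.54 (SE 0.126, adjusted p = 0.00855), just above the fold threshold of 0.5. Without control replicate 2, the lowest library, it was 0.47 and Tlr6 was no longer called.

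The ratio of Tlr1 to Tlr6 was 1.13, 3.06, 0.748 and 0.864 in control and 2.88, 3.02, 3.30 and 2.78 in ANG II. The ANG II libraries lay close together, and control replicate 2 lay among them, so the groups overlapped in this ratio. With the longest annotated transcript in place of the mean length, Tlr2 had the highest mean after Tlr4 in ANG II. It stood at 5.34 ± 1.49 FPKM there against 4.79 ± 0.513 FPKM for Tlr3 (± SD, n = 4 per group), which did not differ beyond their spread.

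Tlr4, the receptor for lipopolysaccharide, was the most abundant Toll-like receptor transcript of the ventricle in all 8 libraries. It lies at chr4:66827584-66930284 on the plus strand. Its values were 22.9, 15.2, 22.9 and 23.2 FPKM in the control libraries and 27.3, 26.6, 26.6 and 31.1 FPKM in ANG II libraries. Control replicate 2 stood below the other control libraries, and the groups did not overlap. The log2 fold change was 0.41 (SE 0.127, adjusted p = 0.0326), which passed the adjusted p but not the fold threshold. It was 0.27 without control replicate 2 and 0.19 after median-of-ratios scaling, where the adjusted p was 0.331.

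Tlr5, the receptor for bacterial flagellin, did not pass the test. It lies at chr1:182954788-182976044 on the plus strand and stood at 0.707, 0.700, 0.778 and 1.54 FPKM in the control libraries and 1.52, 1.25, 1.12 and 1.59 FPKM in ANG II libraries. Control replicate 4 was as high as the ANG II libraries, and the other 3 control libraries were below all of them. The log2 fold change was 0.31 (SE 0.150, 95% interval -0.023 to 0.65, adjusted p = 0.142). Without control replicate 4 it was 0.45 with an adjusted p of 0.0201, still under the fold threshold.

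Among the endosomal receptors, Tlr13 had the largest change. On the log2(FPKM + 1) scale it was also the largest of the 10, while with a pseudocount of 0.1 Tlr1 exceeded it, 2.55 against 2.13, as it did with voom and in the ratio of means. Tlr13 recognises bacterial ribosomal RNA and is present in mice but not in humans. It lies at chrX:106143204-106160493 on the plus strand. The control libraries held 1.70, 1.71, 1.40 and 1.46 FPKM and the ANG II libraries 7.50, 7.76, 8.42 and 5.44 FPKM. These rest on 49 to 55 and 191 to 280 fragments. Both groups were tight, with means of 1.57 ± 0.162 and 7.28 ± 1.29 FPKM (± SD, n = 4 per group), and the lowest ANG II library was far above the highest control. The log2 fold change was 1.68 (SE 0.128, adjusted p = 1.99e-05), and it stayed between 1.39 and 2.19 under 18 alternative settings.

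Tlr7 and Tlr8 sense single-stranded RNA and its breakdown products, and their genes are neighbours on the minus strand of the X chromosome, at chrX:167304929-167330558 and chrX:167242696-167264329, with 40599 bases between them. Tlr7 was at 2.15, 2.81, 2.53 and 3.42 FPKM in the control libraries and at 7.79, 7.37, 7.90 and 5.53 FPKM in ANG II libraries. Tlr8 was at 2.39, 1.94, 4.06 and 4.48 FPKM in the control libraries and at 9.54, 5.36, 6.53 and 8.15 FPKM in ANG II libraries. In neither gene did the groups overlap, and Tlr8 was the more scattered of the pair within both groups. The log2 fold changes were 1.13 (SE 0.137, adjusted p = 0.000245) for Tlr7 and 1.02 (SE 0.225, adjusted p = 0.00665) for Tlr8. The ratio of Tlr7 to Tlr8 ranged from 0.624 to 1.45 in control and from 0.679 to 1.37 in ANG II, so the balance of the pair did not separate the groups.

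Tlr9, the receptor for unmethylated CpG DNA, lies at chr9:106222598-106226883 on the plus strand. It stood at 0.577, 0.315, 0.399 and 0.376 FPKM in the control libraries and at 1.69, 1.30, 1.43 and 1.51 FPKM in ANG II libraries. The ANG II libraries were close to each other and all well above the highest control. The values rest on 16 to 29 fragments in control and 72 to 89 in ANG II. The ratio of means was 3.55 and the log2 fold change 0.81 (SE 0.103, adjusted p = 0.000308). For the receptors near or under 1 FPKM the log2(FPKM + 1) scale understates the change, and with a pseudocount of 0.1 the log2 fold changes were 1.63 for Tlr9, 1.29 for Tlr6 and 2.55 for Tlr1.

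Tlr3, the receptor for double-stranded RNA, was the endosomal receptor with the highest level and the smallest change. It lies at chr8:45395665-45411080 on the minus strand. Its values were 9.98, 8.72, 8.43 and 8.36 FPKM in the control libraries and 12.0, 11.3, 10.8 and 9.25 FPKM in ANG II libraries. Control replicate 1 was above the lowest ANG II library, so the groups overlapped. The log2 fold change was 0.26 (SE 0.0918, adjusted p = 0.0543), with a 95% interval of 0.054 to 0.46. It was 0.05 after median-of-ratios scaling and -0.0049 after quantile normalization, so its direction depends on the scaling.

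**Figure D2:**
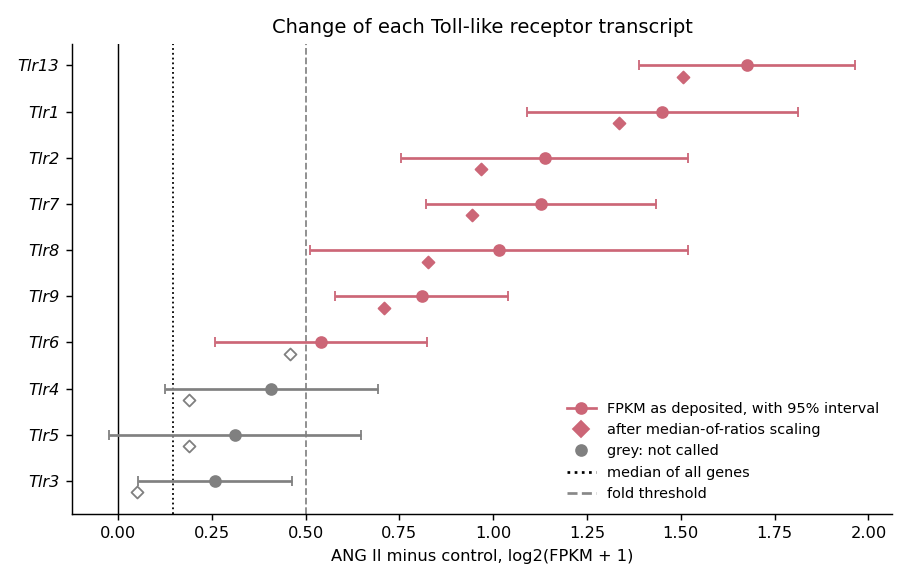
Log2 fold change of each Toll-like receptor on the log2(FPKM + 1) scale, as deposited (circles, with the 95% limma interval over 4 and 4 libraries) and after median-of-ratios scaling (diamonds); red marks called genes and the dotted line the median of all genes at 0.15. Tlr13 and Tlr1 lie farthest right, at 1.68 and 1.45, and Tlr3, Tlr5 and Tlr4 are not called on either scale.

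The order of levels changed with ANG II. In control the means ran Tlr4, Tlr3, Tlr8, Tlr7, Tlr2, Tlr13, Tlr5, Tlr1, Tlr9 and Tlr6, from 21.03 FPKM for Tlr4 to 0.376 FPKM for Tlr6. Only Tlr4 against Tlr3 and Tlr3 against Tlr8 were neighbours whose ranges over libraries did not overlap, so the order from Tlr8 down is not resolved step by step. In ANG II the means ran Tlr4, Tlr3, Tlr8, Tlr13, Tlr7, Tlr2, Tlr1, Tlr9, Tlr5 and Tlr6, from 27.9 to 0.991 FPKM. Tlr13 had moved from place 6 to place 4, beside Tlr8 and Tlr7 at 7.28, 7.40 and 7.15 FPKM, which did not differ beyond their spread. In ANG II the ranges separated between Tlr4 and Tlr3, between Tlr2 and Tlr1 and between Tlr1 and Tlr9.

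The order depends on the length used for each gene. The deposited values divided fragments by the mean length of the annotated transcripts, which include short ones, and the longest transcript was 1.00 times that mean for Tlr2 and Tlr9 but 2.30 times for Tlr4 and 2.26 times for Tlr3. With the longest transcript as the length, Tlr4 stayed in place 1, with 9.15 ± 1.70 FPKM in control against 12.1 ± 0.949 FPKM under ANG II (± SD, n = 4 per group). By the means, Tlr2 moved from place 5 to 3 in control and from 6 to 2 in ANG II, and Tlr8 moved from place 3 to 6 in ANG II. Tlr2 and Tlr3 in ANG II did not differ beyond their spread on this length. The ratio of a single gene between groups does not depend on this choice, but sums and shares over the genes do.

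The summed FPKM of the 10 receptors was 44.1, 33.6, 43.3 and 44.8 in control and 76.2, 69.9, 71.7 and 73.1 in ANG II. The sum was thus 1.75 times as high, with no overlap, and without Tlr3 and Tlr4 it was 2.94 times as high. Among the surface receptors the sum went from 24.6 ± 4.40 to 38.6 ± 3.08 FPKM, and among the endosomal receptors from 16.8 ± 1.06 to 34.1 ± 3.61 FPKM (± SD, n = 4 per group). Tlr3 and Tlr4 together made up 74.5, 71.2, 72.4 and 70.3% of the sum in control and 51.6, 54.2, 52.1 and 55.3% in ANG II. The pair thus held a smaller share in every ANG II library than in any control library. With the longest transcript as the length, the sum was 1.90 times as high and the share of the pair 63.7 to 66.2% in control and 43.1 to 45.2% in ANG II. The share of Tlr13 went from 3.86 ± 0.877 to 10.03 ± 1.90% and that of Tlr1 from 1.14 ± 0.648 to 4.12 ± 0.989% (± SD, n = 4 per group).

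**Figure D3:**
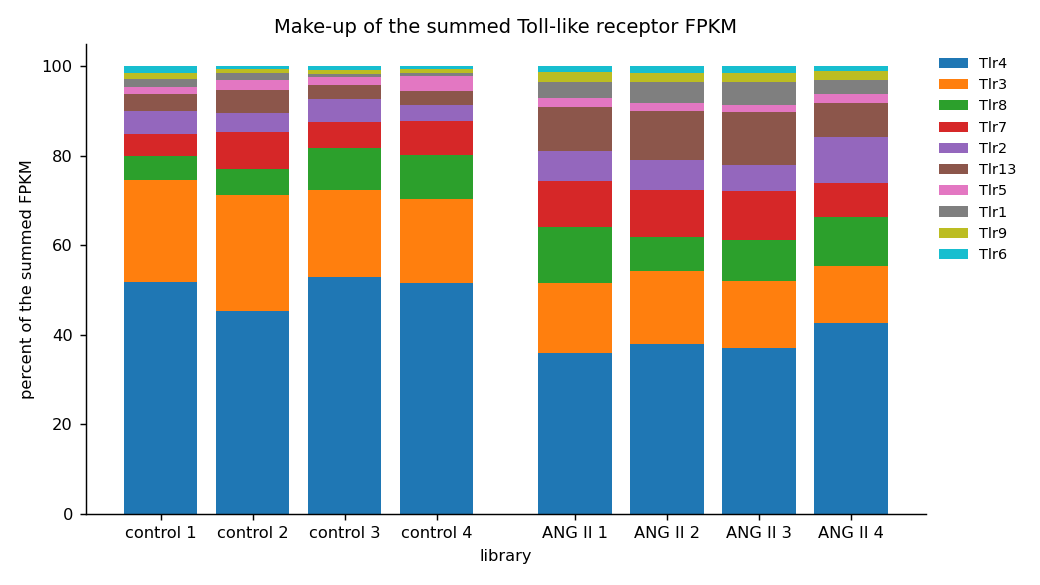
Share of each Toll-like receptor in the summed FPKM of the 10 genes, in percent, in each of the 8 libraries. Tlr4 (bottom) and Tlr3 together hold 70.3 to 74.5% in control and 51.6 to 55.3% in ANG II, where Tlr13 and Tlr1 take larger shares.

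Markers of macrophages, myeloid cells that carry many of these receptors, were also higher in ANG II. Of 14 macrophage markers, 13 were called higher, beside 14.0% of all genes. For all 14, every ANG II library stood above every control library, which held for 28.7% of all genes. Their summed level was 306 to 393 FPKM in the control libraries and 699 to 978 FPKM in ANG II libraries. The ratio of the means of this sum was 2.45. For the other marker sums the ratio was 5.79 for erythroid, 4.52 for fibroblast, 2.53 for neutrophil, 2.41 for T cell, 1.38 for dendritic cell, 1.35 for B cell and 1.18 for endothelial markers, and the T cell, dendritic cell and B cell sums overlapped between groups. Each sum rests mostly on its most abundant genes. Among single fibroblast markers the ratio of means ran from 1.63 for Pdgfra to 9.39 for Col1a1. Among dendritic cell markers it ran from 1.06 for Zbtb46 to 7.78 for Flt3. The cardiomyocyte sum was lower in every ANG II library, with a ratio of 0.79. Of its 8 genes, Myh6 and Tnni3 were called lower, beside 1.41% of all genes, and Nppa, the gene of atrial natriuretic peptide, was called higher. Among the receptors the ratio of means was 6.49 for Tlr1, 4.64 for Tlr13, 3.55 for Tlr9, 2.88 for Tlr2, 2.64 for Tlr6, 2.62 for Tlr7, 2.30 for Tlr8, 1.47 for Tlr5, 1.33 for Tlr4 and 1.22 for Tlr3. The part of these cells and of the lower cardiomyocyte sum in the receptor changes was not tested.

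Expressed per 100 FPKM of the macrophage markers, the receptors fell into 3 sorts. Tlr1 stood at 0.195, 0.183, 0.0802 and 0.0818 in control and 0.323, 0.471, 0.378 and 0.299 in ANG II, and Tlr13 at 0.432, 0.560, 0.429 and 0.473 against 0.865, 1.11, 0.861 and 0.748. Both were thus higher in ANG II also in relation to the sum of these markers, without overlap, by 2.72 and 1.89 times. Tlr3 at 2.54 to 2.85 in control and 1.10 to 1.62 in ANG II, and Tlr4 at 4.96 to 7.52 and 2.72 to 4.28, were lower in relation to the sum, also without overlap. The other 6 receptors overlapped between groups on this measure. Tlr9 was the nearest to separation among them, at 0.103 to 0.147 in control and 0.146 to 0.208 in ANG II. The counts were the same, 2 higher, 2 lower and 6 overlapping, with Lyz2, the most abundant marker, left out of the sum, an alternative chosen after the data were seen. These ratios are descriptions without a test, and they hold for the sum, which rests mostly on its most abundant markers. Among single macrophage markers the ratio of means ran from 1.39 for Cd163 to 5.19 for Ccr2, against 4.64 for Tlr13 and 6.49 for Tlr1. Receptor levels relative to single markers were not examined.

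**Figure D4:**
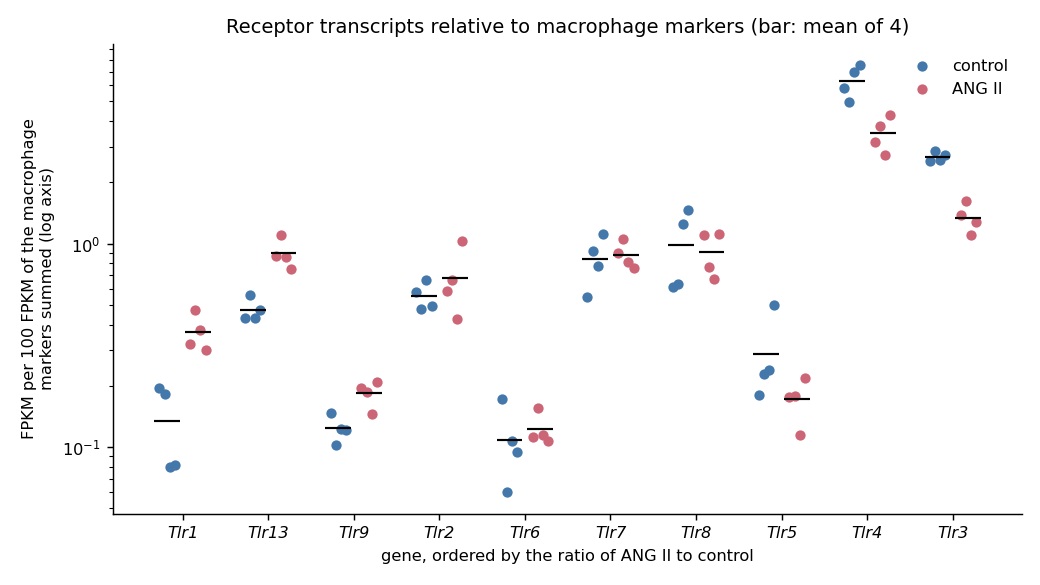
FPKM of each Toll-like receptor per 100 FPKM of 14 macrophage markers summed, on a log axis, in 4 control (blue) and 4 ANG II (red) libraries, with the mean as a bar, ordered by the ratio of ANG II to control. Tlr1 and Tlr13 at the left are higher in all ANG II libraries, Tlr3 and Tlr4 at the right are lower, and the other 6 overlap.

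Other cell markers gave the following values, to be read against the 14.0% of all genes called higher. Endothelial markers were called higher for 2 of 8, near that share, and for none after median-of-ratios scaling. Without ANG II replicate 1, 2 or 3 these markers were called higher for 1 of 8, beside 13.0 to 14.3% of all genes. Per 100 FPKM of their sum Tlr3 stood at 1.89 to 2.12 in control and 1.93 to 2.22 in ANG II and Tlr4 at 3.42 to 5.53 and 4.80 to 6.50, both with overlap. This last ratio was chosen for Tlr3 and Tlr4 after their values were seen. Fibroblast markers were called higher for 8 of 8, and their sum went from 535 to 794 FPKM in control to 2840 to 3318 FPKM in ANG II. Of 10 neutrophil markers 5 reached the tested level and 2 were called higher, with Elane at 0 in every library and Mpo at 0 in all but ANG II replicate 3 at 0.0509 FPKM, and the sum went from 2.50 to 4.58 FPKM to 5.36 to 9.58 FPKM. Dendritic cell markers were called higher for 3 of 8, with sums of 54.5 to 87.1 and 71.2 to 116 FPKM, T cell markers for 3 of 7, with sums of 2.28 to 8.52 and 7.45 to 13.8 FPKM, and B cell markers for 0 of 7, with sums of 4.05 to 6.60 and 5.94 to 7.51 FPKM. Erythroid genes were called higher for 5 of 6, at 96.8 to 487 FPKM in the control libraries and 581 to 2084 FPKM in ANG II libraries. Control replicate 1 was the highest control for the macrophage, T cell, B cell, neutrophil, endothelial and erythroid sums and for Tlr1, Tlr2, Tlr3, Tlr6 and Tlr9. Without it 7 receptors were called, and T cell markers were called higher for 6 of 7, beside 14.6% of all genes. The part of these cell types in the receptor changes was not tested.

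The remaining mouse Toll-like receptor genes, Tlr11 and Tlr12, which sense a protozoan profilin, were near the limit of detection. Tlr11 rested on 2 to 10 fragments in control and 8 to 17 in ANG II, and Tlr12 on 1 to 4 and 2 to 12. Neither was called, with log2 fold changes of 0.18 (adjusted p = 0.181) and 0.17 (adjusted p = 0.252), though Tlr11 was called at an adjusted p of 0.0387 by limma with voom weights on fragments.

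The genes that bring ligands to the receptors and carry the signal onward were examined by role. Over these lists, receptors left out, 96 genes were tested, of which 38 were called higher and 0 lower, beside 14.0% and 1.41% of all genes. The median log2 fold change was 0.43, against 0.15 over all genes. After median-of-ratios scaling 26 were called higher, beside 8.65% of all genes, and 1 lower, beside 4.17%.

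Among endogenous ligands, matrix and damage-associated molecules reported to act through Tlr2 or Tlr4, 6 of 8 rose, beside 14.0% of all genes. Tnc, the matrix protein tenascin-C, stood at 0.346, 0.606, 0.413 and 0.436 FPKM in the control libraries and 16.8, 9.08, 19.2 and 8.95 FPKM in ANG II libraries, with a log2 fold change of 3.25 (SE 0.229, adjusted p = 1.23e-05). Bgn, the proteoglycan biglycan, went from 176 ± 27.1 to 798 ± 114 FPKM (± SD, n = 4 per group), with a log2 fold change of 2.18. Both are matrix genes, whose level moved with the fibroblast markers above. S100a9, a subunit of calprotectin, had a log2 fold change of 1.49 with overlap between groups, since control replicate 1 at 2.95 FPKM was above ANG II replicate 1 at 2.56 FPKM. Vcan, the proteoglycan versican, had 1.34. The chaperone Hspd1 was lower in every ANG II library, with a log2 fold change of -0.41 that did not reach the fold threshold, and it was called lower after median-of-ratios scaling.

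Among co-receptors and trafficking proteins 7 of 10 rose, beside 14.0% of all genes, and 4 after median-of-ratios scaling, beside 8.65%. Cd180, a receptor-like protein related to Tlr4, and its partner Ly86 had log2 fold changes of 1.37 and 1.59 (adjusted p = 0.000160 and 0.000153). Unc93b1, the chaperone of the endosomal receptors, went from 23.96 ± 3.43 to 52.6 ± 6.24 FPKM (± SD, n = 4 per group), with a log2 fold change of 1.11 (SE 0.114). Cd14, which hands lipopolysaccharide to Tlr4, stood at 6.06, 7.26, 8.18 and 9.22 FPKM in the control libraries and 12.5, 12.5, 16.1 and 52.2 FPKM in ANG II libraries. The groups did not overlap, and ANG II replicate 4 stood far above the others. Cd14 was called (log2 fold change 1.23, adjusted p = 0.0341), but 9 of 18 alternatives, median-of-ratios scaling among them, took the call away. Leaving out any 1 control library or ANG II replicate 3 gave adjusted p from 0.0503 to 0.0796. Without ANG II replicate 4 the log2 fold change of Cd14 was 0.76, and it was called (adjusted p = 0.00421). Ly96, also called MD-2, the part of the receptor complex that holds the lipid, was at 4.92, 2.38, 2.62 and 2.38 FPKM in the control libraries and 4.70, 3.27, 3.67 and 4.02 FPKM in ANG II libraries, and it did not pass the test (log2 fold change 0.30, adjusted p = 0.245). Without control replicate 1, which stood above the other controls, the log2 fold change of Ly96 was 0.50 (0.499, under the fold threshold) with an adjusted p of 0.0154. The difference between Cd14 and Ly96 was not tested.

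The adaptors were called higher for 2 of 6, beside 14.0% of all genes, and for 1 of 6 after median-of-ratios scaling, beside 8.65%. Myd88, the adaptor shared by all receptors except Tlr3, stood at 7.05, 6.12, 5.70 and 6.62 FPKM in the control libraries and 10.3, 8.12, 10.3 and 10.1 FPKM in ANG II libraries. The groups did not overlap, and the log2 fold change was 0.53 (SE 0.0974, adjusted p = 0.00236). It lost the call in 4 of 18 alternatives, among them median-of-ratios scaling and the removal of control replicate 3, where the log2 fold change was 0.49. Pik3ap1, an adaptor that couples these receptors to phosphoinositide 3-kinase, had a log2 fold change of 1.33. Ticam1, the adaptor of Tlr3, stood at 3.61 ± 0.596 FPKM in the control libraries and 3.97 ± 0.874 FPKM in ANG II libraries (± SD, n = 4 per group) and did not pass the test (adjusted p = 0.628). Its log2 fold change of 0.10 turned negative under median-of-ratios scaling.

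Of 24 signalling kinases, ligases and transcription factors, 5 rose, near the 14.0% of all genes called higher, and the same 5 after median-of-ratios scaling, beside 8.65%. They were Irf5, a transcription factor activated through Myd88, with a log2 fold change of 1.13, the kinases Ikbke, Irak4 and Btk with 0.95, 0.83 and 0.82, and the kinase Ripk1 with 0.71. Irak4, the first kinase bound by Myd88, went from 2.23 ± 0.294 to 4.78 ± 0.873 FPKM (± SD, n = 4 per group). Traf6, the ubiquitin ligase that follows it, did not pass the test at 6.65 ± 0.695 and 7.32 ± 0.484 FPKM (adjusted p = 0.328), and its log2 fold change of 0.12 turned negative under median-of-ratios scaling.

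Of 15 inhibitors of the pathway, 3 rose, near the 14.0% of all genes called higher. They were Nfkbiz, an atypical inhibitor of NF-kB that can also activate some of its targets, at 0.89, the deubiquitinase Tnfaip3 at 0.69 and Irak3, a pseudokinase that restrains Irak signalling, at 0.56 on the log2 scale. After median-of-ratios scaling 1 was called, Nfkbiz, beside 8.65% of all genes. Tollip, which binds Irak1, was at 36.1 ± 2.18 FPKM in the control libraries and 35.8 ± 0.822 FPKM in ANG II libraries (± SD, n = 4 per group, adjusted p = 0.915), with a log2 fold change of -0.0096 whose sign changed when single libraries were left out.

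Genes that NF-kB drives after receptor signalling were called higher for 11 of 18, beside 14.0% of all genes, and for 8 after median-of-ratios scaling, beside 8.65%. Cd86, a costimulatory ligand for T cells, went from 3.41 ± 0.525 to 8.92 ± 1.79 FPKM (± SD, n = 4 per group), with a log2 fold change of 1.16. The chemokine genes Ccl5 and Ccl4 had 1.28 and 1.07. Il1b, an inflammatory cytokine, stood at 4.71, 1.19, 2.24 and 1.78 FPKM in the control libraries and 3.67, 4.58, 8.76 and 19.2 FPKM in ANG II libraries. The groups overlapped and ANG II replicate 4 was again the highest, as for Cd14 and Tlr2. Its log2 fold change was 1.38 (adjusted p = 0.0383), and 10 of 18 alternatives took the call away. Among them were the removal of control replicate 2, 3 or 4 and of ANG II replicate 3 or 4, with adjusted p from 0.0681 to 0.0942.

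Type I interferon and its targets were called higher for 4 of 15, beside 14.0% of all genes, and for 1 of 15 after median-of-ratios scaling, beside 8.65%. The count on the deposited scale depends on control replicate 4, which was the highest control for 11 of the 15 genes and the highest of all 8 libraries for 8 of them. The count after scaling was not repeated with single libraries left out. Ifit3, an interferon-induced antiviral gene, stood at 15.1, 10.8, 10.8 and 39.8 FPKM in the control libraries and 29.7, 17.9, 20.5 and 23.7 FPKM in ANG II libraries. Oasl2, also induced by interferon, stood at 14.5, 14.1, 12.9 and 48.2 FPKM in the control libraries and 31.1, 26.0, 32.6 and 23.0 FPKM in ANG II libraries. In both genes control replicate 4 was above every ANG II library and the other 3 control libraries were below all of them. Without control replicate 4, 11 of 15 were called higher, beside 13.1% of all genes. Leaving out any other 1 library gave 3 of 15. Ifnb1, the gene of interferon beta, was at 0 in all libraries except ANG II replicate 3, where it had 0.0882 FPKM, and it was too low to be tested. The chemokine gene Cxcl10 stood at 3.14, 0.437, 1.25 and 1.15 FPKM in the control libraries and 7.83, 4.40, 4.74 and 4.29 FPKM in ANG II libraries, with a log2 fold change of 1.41 (SE 0.295, adjusted p = 0.00488). Mx1, an antiviral GTPase, had 1.07 (adjusted p = 0.0432) with overlap, and 12 of 18 alternatives took the call away. Among them was the removal of any 1 library other than control replicate 4, with adjusted p from 0.0508 to 0.112. The receptor subunits Ifnar1 and Ifnar2 both had 0.67.

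**Figure D5:**
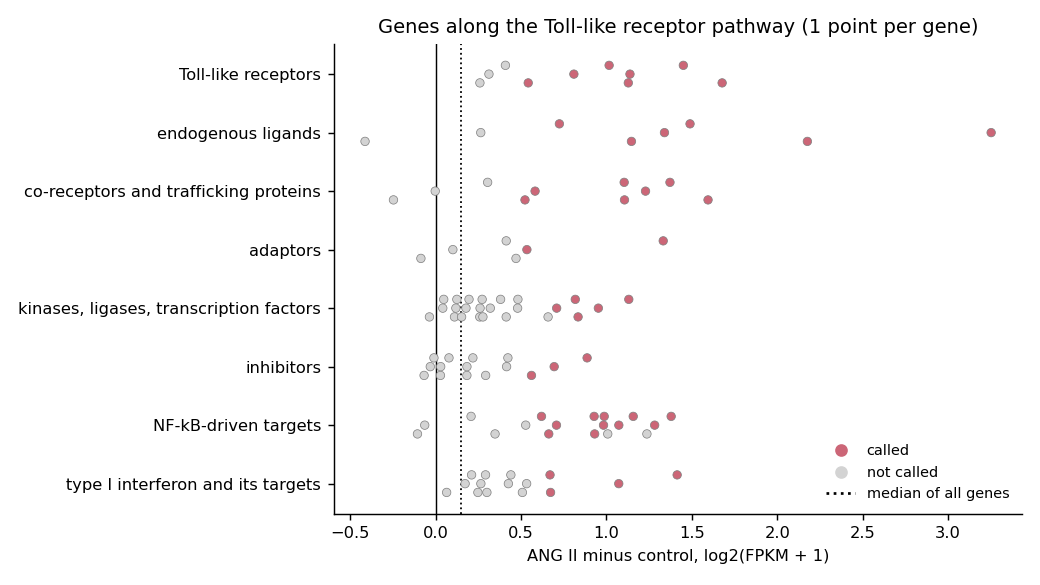
Log2 fold change, on the log2(FPKM + 1) scale, of every tested gene of the Toll-like receptors and of 7 lists along their pathway, 1 point per gene, red where called. The dotted line is the median of all genes at 0.15, and the called genes number 7 of 10 receptors, 6 of 8 ligands, 7 of 10 co-receptors and trafficking proteins, 2 of 6 adaptors, 5 of 24 kinases, ligases and transcription factors, 3 of 15 inhibitors, 11 of 18 NF-kB targets and 4 of 15 interferon genes.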

How the data were processed

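The 8 samples were mouse left ventricles, 4 control and 4 ANG II. The labels' extraction text also names CRC cells, which no sample label mentions. Poly(A) RNA was selected with oligo(dT) beads and sequenced as paired reads of 150 bases. The authors deposited 1 table of FPKM values with a column per library and no pooling. The submitters' processing notes name Bowtie2, HISAT and RSEM. The genome build, annotation and use of strand are not given in the sources used here. Samples were grouped by the treatment in their labels.

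FPKM were tested with limma 3.58.1 in R 4.3.3 (variance trend, two-sided) on log2(FPKM + 1) for genes averaging 0.1 FPKM or more, with Benjamini-Hochberg adjustment over all 19364 genes. The study names limma and both thresholds but not the pseudocount or the filter, which were choices of this work. All 8 libraries entered with no covariate. Since 1 was added before the logarithm, changes of low genes are understated. The fit was tested on simulated data.

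The depth was read from the deposited values. FPKM multiplied by the mean transcript length of GENCODE M21 (GRCm38) gave whole multiples of a step particular to each library, within 0.05, for 98.1 to 98.5% of values under 60 fragments, which gave the fragments per library and per gene. For Tlr6 a length of 2242 bases in place of the annotated 2061.5 gave whole fragments. Counting error is the only error fragments reflect, and fragments without molecular identifiers are not independent molecules. The fragments of libraries within a group were compared for repeated deposits of 1 library, and no such pair was alike.

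Motifs and shared 50-base words were searched with Python 3.11.15, numpy 2.4.6 and pandas 2.3.3. Start regions came from RefSeq and gene positions from GENCODE M21, which held 55141 of the IDs in the table. The text names all 12 Toll-like receptor genes, up to 4 called members of each list with the largest absolute log2 fold change, 9 pathway genes fixed by name, and markers at or near 0. The chaperone Hspd1, the kinase Ripk1, the cytokine Ifnb1, the interferon targets Ifit3 and Oasl2, the cardiomyocyte genes called and Gm45542 were named after their values or positions were seen. The same holds for the markers Ccr2, Cd163, Pdgfra, Col1a1, Zbtb46 and Flt3. The receptors and lists were chosen with earlier results of these data known. Alternatives changed the pseudocount (0.1), the filter on low values (removed, or raised to 1 FPKM), the scaling, the variance trend, the replicate block, the test (voom), the fold threshold and the libraries. Adding the longest transcript as length and the marker sum without Lyz2 came after the data were seen.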

Additional observations from a re-analysis of the deposited data

Results flagged for a closer look

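A library was marked as standing apart where its gap to the nearest of the 4 libraries in its group exceeded Dixon's critical share of the range for a group of 4. This held in 14 of 108 groups of marker sums and of genes named by rule, and chance marks about 1 in 20. Genes named after their values were seen, such as Ifit3, Oasl2 and Cxcl2, were not among these groups. Among the receptors it was control replicate 2 for Tlr4 at 15.2 FPKM, control replicate 4 for Tlr5 at 1.54 FPKM and control replicate 1 for Tlr11 at 0.223 FPKM. ANG II replicate 4 stood high for Cd14 at 52.2 FPKM, against 12.5 to 16.1 FPKM in the other 3 libraries. ANG II replicate 2 stood low for Myd88 at 8.12 FPKM and for Irf5 at 8.995 FPKM. ANG II replicate 1 stood high for Cxcl10 at 7.83 FPKM and Mx1 at 6.72 FPKM. Control replicate 1 stood high for Ly96 at 4.92 FPKM and for the summed erythroid markers at 487 FPKM, and control replicate 3 low for Tollip at 32.9 FPKM. Among other pattern recognition receptors, ANG II replicate 3 stood high for Clec4n at 15.7 FPKM, and for Clec7a control replicate 4 stood low at 0.531 FPKM and ANG II replicate 3 high at 9.76 FPKM.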

How the results depend on the processing

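The calls of Tlr1, Tlr2, Tlr7, Tlr8, Tlr9 and Tlr13 held in every alternative in which each could be tested, while Tlr6 lost its call under median-of-ratios scaling (0.46), quantile normalization (0.38), removal of mitochondrially encoded genes and the 10 most abundant genes (0.49) and without control replicate 2 (0.47). Tlr6 and Tlr9 were not tested at a mean of at least 1 FPKM, where 5 receptors were called. With the adjusted p alone 8 receptors were called, Tlr4 added, and 6447 genes in place of 2981. Under quantile normalization 24 pathway genes were called in place of 38, the cause being untested, and the log2 fold change turned to -0.0049 for Tlr3, -0.020 for Ly96, -0.22 for Ticam1 and -0.18 for Traf6. Under median-of-ratios scaling it turned to -0.080 for Ticam1 and -0.076 for Traf6, and without the most abundant genes to -0.015 and -0.0045. With single libraries left out Ticam1 ranged from -0.0049 (ANG II replicate 4) to 0.19, and Tollip from -0.053 to 0.0082, with 0.0073 without control replicate 1 and 0.0041 without ANG II replicate 1. Called genes split into 2708 higher and 273 lower as deposited, 1672 and 806 under median of ratios, 1413 and 986 under quantile normalization and 1976 and 536 without the most abundant genes. Leaving out each library in turn gave 2763 to 3109 genes, 6 to 7 receptors and 34 to 44 pathway genes, the most without control replicate 4, where interferon genes called went from 4 to 11. Same-numbered libraries did not deviate together over all genes tested (r from -0.032 to 0.062). A pairing that affects few genes would not show in this measure. With the replicate block 2968 genes, 7 receptors and 39 pathway genes were called. Depth limits Tlr11, Tlr12 and Tlr6 most, with 1 to 39 fragments.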

Other observations

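Pattern recognition receptors outside the Toll-like family were called higher for 11 of 20 tested and lower for 0, beside 14.0% and 1.41% of all genes. Their median log2 fold change was 0.62, against 0.15 over all genes. After median-of-ratios scaling 9 were called higher, beside 8.65% of all genes. The leading ones were C-type lectins, which bind microbial sugars, and a scavenger receptor. Clec4n (dectin-2) stood at 1.47, 2.48, 0.900 and 1.95 FPKM in the control libraries and 10.7, 10.7, 15.7 and 9.999 FPKM in ANG II libraries, with a log2 fold change of 2.26 (SE 0.197, adjusted p = 4.22e-05). Clec4d went from 0.404 ± 0.382 to 3.38 ± 0.797 FPKM (± SD, n = 4 per group), 1.66 on the log2 scale. Clec7a (dectin-1) and Msr1 (scavenger receptor A) had log2 fold changes of 1.40 and 1.35. These 4 genes did not overlap between groups, and Clec4n exceeded Tlr13, the Toll-like receptor with the largest change on this scale. The difference between them was not tested.

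ANG II replicate 4, the highest library for Cd14, Tlr2 and Il1b, also stood apart for the neutrophil-attracting chemokine gene Cxcl2, chosen after its values were seen. Cxcl2 was at 0.153, 0.202, 0.400 and 0.241 FPKM in control, at 0.729, 0.924 and 0.438 FPKM in ANG II replicates 1, 2 and 3, and at 14.5 FPKM in ANG II replicate 4. It was also the highest library for Tlr4 at 31.1 FPKM, Tlr5 at 1.59 FPKM, Nfkbiz at 10.8 FPKM and Tnfaip3 at 7.23 FPKM. It was the lowest of the ANG II libraries for Tlr1, Tlr3, Tlr6, Tlr7 and Tlr13, at 2.17, 9.25, 0.782, 5.53 and 5.44 FPKM.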
